A study of Mus musculus with 35 samples.

Results

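Double positive thymocytes were compared with double negative thymocytes of mice that carry 1 floxed Mettl3 allele and the Cd4Cre transgene. The comparison uses 10 of the 35 bulk RNA-seq libraries of the study, 5 of each stage, chosen by their labels. Of 41096 genes in the deposited table, 13490 passed the filter on low counts in these 10 libraries and were tested. WT DP denotes CD4+CD8+ cells and WT DN denotes CD4-CD8- cells, both flow sorted from thymus at 10 weeks of age, and the genotype is given as Mettl3flox/wt; Cd4Cre. The label WT therefore stands for a heterozygous floxed genotype with a Cre transgene and not for a mouse without either. The Cre is driven by regulatory sequence of Cd4, which is largely silent in early DN cells and active in DP cells, so recombination of the floxed allele and the stage under comparison go together. Young DP and young DN, 5 libraries each, came from wild-type mice of the same age and are used at the end for the same contrast. The labels do not say whether the 5 libraries of a group are separate animals, so p-values measure the spread between these libraries. They also do not say whether the DN sort removed cells of other lineages.

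T cell precursors enter the thymus without CD4 or CD8 and rearrange the T cell receptor beta, gamma and delta genes as DN cells, under Notch and interleukin 7 signals. A cell with a working beta chain pairs it with the invariant pre-TCR alpha chain, divides in a burst, switches on both coreceptors and becomes a DP cell. DP cells stop dividing, switch the recombinase on again, rearrange the alpha genes, and wait for a signal from self peptide on MHC that decides whether they live. The DN gate is defined by what cells lack, so any cell without CD4 and CD8 falls into it unless it is removed by other stains.

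Total counts per library were 13018069 to 14893173 in WT DP and 15849190 to 18820157 in WT DN, and the groups did not overlap (exact 2-sided permutation test, p = 0.00794, adjusted p = 0.0102 over 9 single-value tests). Genes with a count numbered 17429 to 18766 in WT DP and 16170 to 17956 in WT DN (exact permutation test, p = 0.0714). The first principal component of the most variable genes held 88.6% of their variance and separated the stages. The second held 5.16%, and WT DN replicate 2 stood farthest out on it. That library carried the highest B cell marker sum, and where leaving it out moved a log2 fold change printed below by more than 1.5-fold, the value without it is given. Xist, the transcript of the inactive X chromosome, was at 845 to 2546 CPM in replicates 1 and 2 of both groups and at 0 to 0.793 CPM in replicates 3 to 5 of both, so each group held 2 libraries with it and 3 almost without. Values below are CPM, counts scaled to library size with edgeR's TMM factors, which are not per length and so are compared for 1 gene across libraries and not between genes.

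Most genes tested differed between the stages. By edgeR's quasi-likelihood test, 8622 genes were called at an adjusted p under 0.05, which is 63.9% of those tested, with 4080 (30.2%) higher and 4542 (33.7%) lower in WT DP. Because a call of any size was so common, genes were also tested against a 2-fold change. By that test 2629 genes changed (19.5%), of which 999 (7.41%) were higher and 1630 (12.1%) lower in WT DP. Among called genes, a change of at least 8-fold was found upward for 273 genes (2.02%) and downward for 612 (4.54%). The median log2 fold change over all genes tested was -0.02, and it stayed within -0.05 and 0.02 under the other scalings tried. Apart from any call, the 2 groups of values did not overlap for 49.9% of all genes tested, 23.3% with WT DP higher and 26.6% with WT DP lower. Counts of a list's rises and falls below are to be read against the 30.2% and 33.7% of all genes, and no list was tested against them. Below, "rose" and "fell" refer to WT DP relative to WT DN and to the adjusted p over all genes tested.

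**Figure D1:**
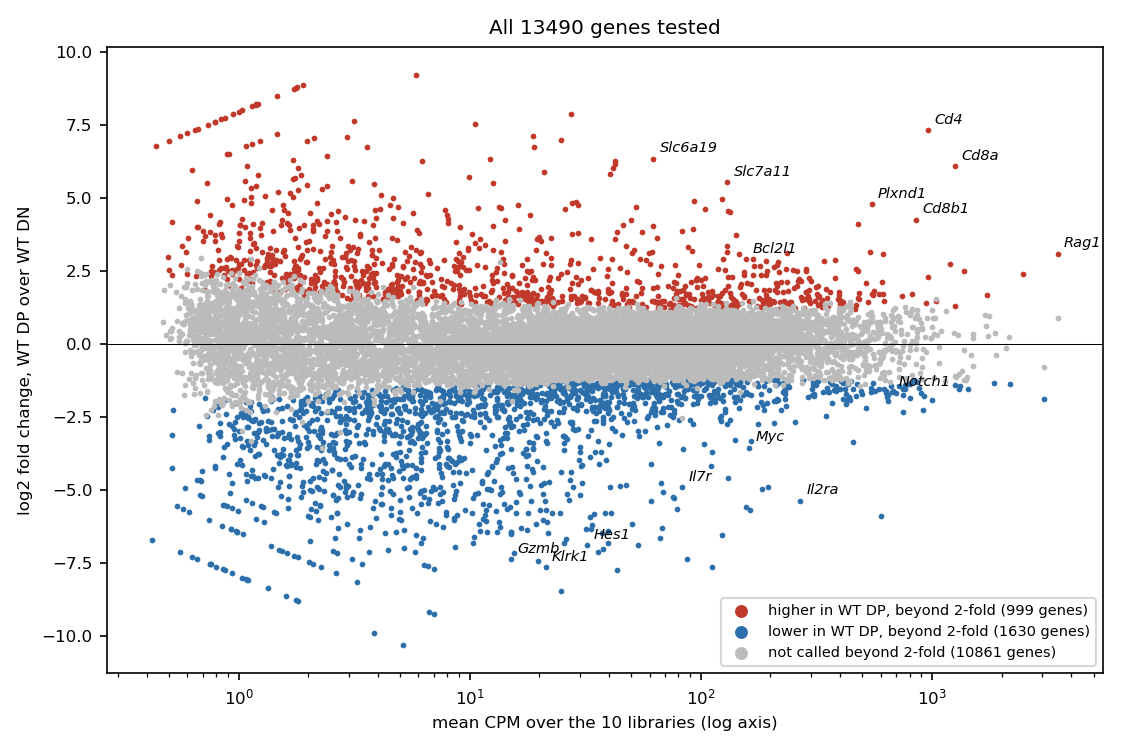
Mean level over the 10 libraries (CPM, log axis) against the log2 fold change of WT DP over WT DN for each gene tested. Red points are the 999 genes higher and blue points the 1630 genes lower in WT DP beyond 2-fold. Cd4 and Cd8a, at log2 fold changes of 7.33 and 6.09, lie at the upper right.

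Mettl3, the catalytic subunit of the m6A RNA methyltransferase and the floxed gene of the study, had 50.6, 44.7, 54.0, 53.4 and 52.2 CPM in WT DP, against 40.6, 57.3, 45.4, 44.2 and 53.8 CPM in WT DN. The groups overlapped, and the log2 fold change of 0.08 ± 0.11 (SE, adjusted p = 0.546) was within the spread between libraries. A gene-level count does not separate a floxed from a recombined allele.

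The coreceptor genes checked the sort, and all 3 rose beyond 2-fold. Cd4 had 1993, 2262, 1904, 1522 and 1853 CPM in WT DP, against 15.6, 14.6, 11.9, 6.45 and 10.7 CPM in WT DN. Cd8a had 2334, 2405, 2411, 2590 and 2626 CPM in WT DP, against 48.6, 36.8, 40.7, 17.7 and 37.1 CPM in WT DN. Every WT DP library lay far above every WT DN library for both genes, with log2 fold changes of 7.33 ± 0.25 for Cd4 and 6.09 ± 0.24 for Cd8a (SE, adjusted p = 2.01e-10 and 5.97e-10). Cd8b1, which encodes the other CD8 chain, averaged 1629 ± 101 CPM in WT DP and 84.6 ± 22.9 CPM in WT DN (SD, n = 5 each), a log2 fold change of 4.27. These low DN levels are counts over a mixed gate: in bulk RNA, fewer cells of a type and less RNA per cell cannot be told apart, here or in any result below.

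**Figure D2:**
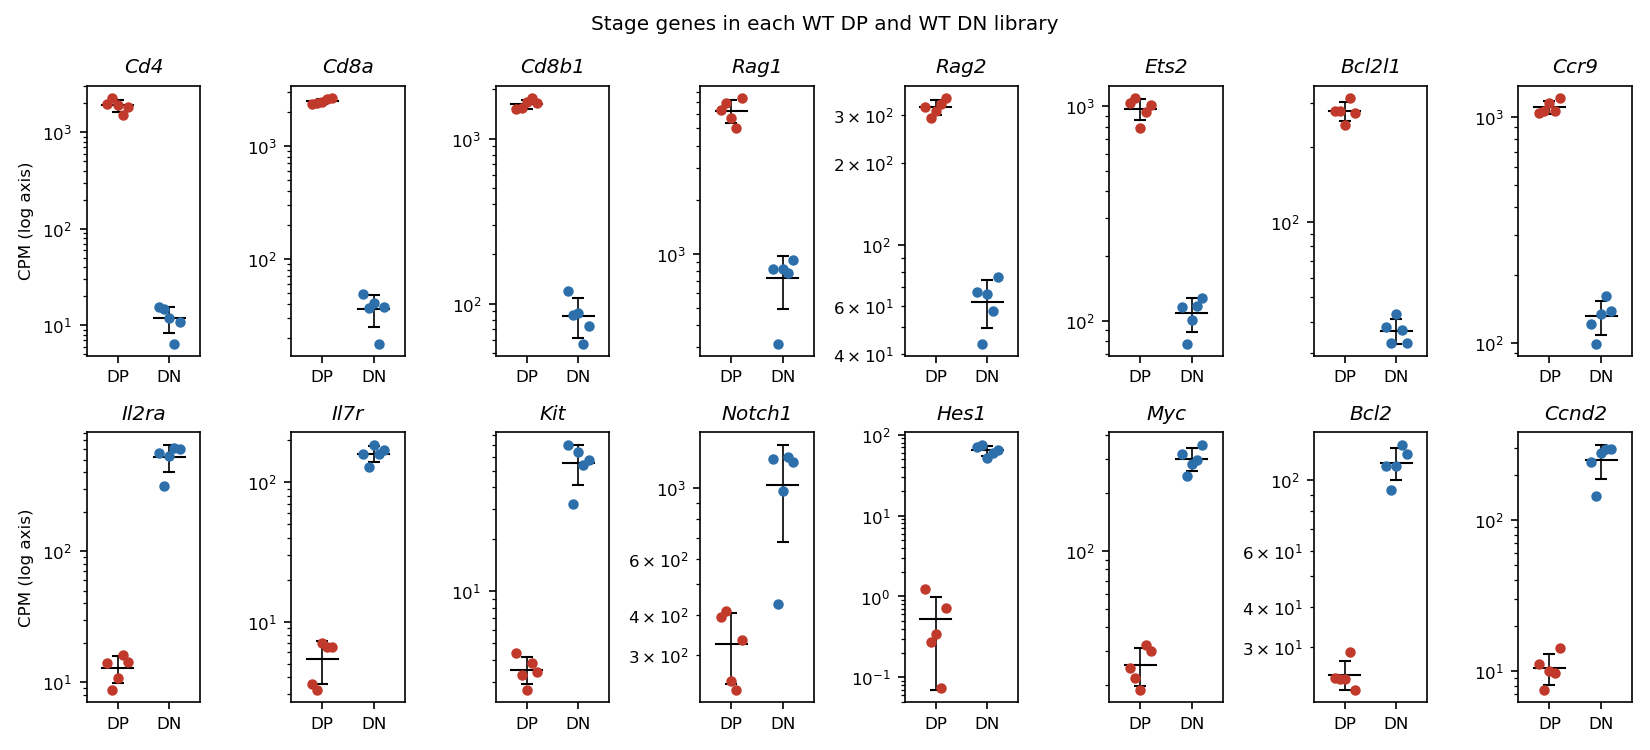
CPM of 16 stage genes in each library, on a log axis that differs by panel, with WT DP (red) left of WT DN (blue). Points are libraries, bars the mean and whiskers the SD (n = 5). The top row holds genes higher in WT DP and the bottom row genes lower in WT DP, and the low blue point in the Rag1 and Notch1 panels is WT DN replicate 2.

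Because the DN gate is negative, markers of other cell types were examined next. Of 20 B cell markers, 19 fell, with a median log2 fold change of -5.27, and 1 was not called. The summed level of the 20 markers was 617 to 748 CPM in WT DP and 618 to 8281 CPM in WT DN, and in WT DP most of it was Ighm, the immunoglobulin mu gene, at 617 ± 49.2 CPM. Without WT DN replicate 2 the median was -3.90, with 19 markers lower and 1 higher, and with all libraries DESeq2 called 8 of the 9 to which it gave an adjusted p lower and gave none to the other 11. All 7 called plasma cell markers of 10 tested fell, and their list summed to 167 to 196 CPM in WT DP and 239 to 2001 CPM in WT DN.

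All 10 granulocyte and mast cell markers tested fell, with a median of -6.83, or -6.60 with genes at 0 in WT DP set to their bound. Members near 0 in WT DP could pass the filter only through WT DN, so the direction of their change was set by the filter. The list summed to 2.40 to 8.72 CPM in WT DP and 164 to 661 CPM in WT DN, and 5 of its 17 members had no count in any WT DP library. NK and innate lymphoid markers fell in 15 of 16 cases, with a summed level of 105 to 131 CPM in WT DP and 548 to 641 CPM in WT DN. Klrk1, an activating NK receptor, had 0.292, 0.206, 0.206, 0.223 and 0.0796 CPM in WT DP, against 44.8, 31.6, 54.9, 36.9 and 43.8 CPM in WT DN, and no library of one group reached the range of the other. Of 12 gamma delta T cell and innate-like T cell markers tested, 10 fell and 1 rose. Of 14 dendritic cell markers, 11 fell and 1, the chemokine receptor Ccr9, rose. Their list summed to 1385 to 1580 CPM in WT DP. In WT DN it summed to 10279 CPM in replicate 2 and to a lower 797 to 1244 CPM in the other libraries. DESeq2 called 7 lower of the 10 to which it gave an adjusted p. Macrophage markers were mostly untested, with 5 of 15 passing the filter, of which 3 fell and 1 rose, and their sums were 32.1 to 50.5 CPM in WT DP and 36.6 to 107 CPM in WT DN. Of 17 markers of mature single positive T cells, 12 fell and 3 rose, and the risers were Cd4, Cd8b1 and Foxp3, a regulatory T cell factor named here after its value was seen, at a mean of 1.46 CPM in WT DP and 0.495 CPM in WT DN. Erythroid markers were at 0.876 to 3.20 summed CPM in WT DP and 0.634 to 2.57 summed CPM in WT DN, with none passing the filter. Markers of thymic epithelium and stroma summed to 210 to 238 CPM in WT DP and 255 to 281 CPM in WT DN, and of 7 tested 3 fell and 2 rose. In every marker list, members near 0 in WT DP passed the filter only through WT DN. The part of these other cells in the falls described below was not tested.

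The recombination machinery divided. Of 14 genes for cutting, end joining and end processing, 8 rose, 2 fell and 4 were not called, with a median log2 fold change of 0.33. Rag1 and Rag2, the 2 subunits of the recombinase, lie beside each other on chromosome 2 in the deposited table, Rag1 from 107014169 to 107025388 on the minus strand and Rag2 from 107000660 to 107008416 on the plus strand. Rag1 had 6344, 6909, 5681, 5019 and 7360 CPM in WT DP, against 818, 315, 819, 784 and 920 CPM in WT DN. Rag2 had 321, 294, 310, 331 and 346 CPM in WT DP, against 67.2, 43.5, 66.0, 57.3 and 76.4 CPM in WT DN. Neither gene's groups overlapped, WT DN replicate 2 was the lowest library for both, and the log2 fold changes were 3.10 ± 0.25 and 2.37 ± 0.13 (SE, adjusted p = 2.26e-07 and 8.91e-09).

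The transcript B230118H07Rik, named after its position was seen, spans both genes on the minus strand and also rose, at 20.2 ± 5.22 CPM in WT DP and 7.66 ± 2.24 CPM in WT DN (SD, n = 5 each). How reads in the shared interval were assigned is not given in the sources used here.

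The other enzymes of the reaction moved less or the other way. Dclre1c, which encodes the Artemis nuclease that opens the hairpin ends, averaged 120 ± 23.8 CPM in WT DP and 31.8 ± 7.18 CPM in WT DN, a log2 fold change of 1.91. Dntt, the terminal transferase that adds bases at the junctions, averaged 2123 ± 164 CPM in WT DP and 1640 ± 148 CPM in WT DN (SD, n = 5 each), a called but small log2 fold change of 0.37 (adjusted p = 0.00591, and 0.209 in the fit of all 35 libraries). The falls were Poll, a gap-filling DNA polymerase, with a log2 fold change of -3.13, and Xrcc5, the Ku80 end-binding subunit, at -1.37. Ptcra, which encodes the pre-TCR alpha chain, also fell, with 32.6, 28.6, 28.6, 40.9 and 29.2 CPM in WT DP against 90.3, 74.9, 79.0, 85.0 and 95 CPM in WT DN. The 2 groups of Ptcra values did not overlap (log2 fold change -1.41 ± 0.12, SE, adjusted p = 3.49e-07).

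The 250 bases upstream of Rag1, Rag2 and Ptcra are shown because both recombinase genes rose while the gene of the pre-TCR chain fell. E proteins, the helix-loop-helix factors of early T cells, bind E-box sequences, and capitals mark the E-box CAGCTG, which reads the same on both strands. Sequences are from RefSeq on GRCm38.p6, 5′ to 3′ toward the start of the gene, at chr2:101649533-101649782 on the minus strand for Rag1, chr2:101624462-101624711 on the plus strand for Rag2 and chr17:46763713-46763962 on the minus strand for Ptcra.
Rag1: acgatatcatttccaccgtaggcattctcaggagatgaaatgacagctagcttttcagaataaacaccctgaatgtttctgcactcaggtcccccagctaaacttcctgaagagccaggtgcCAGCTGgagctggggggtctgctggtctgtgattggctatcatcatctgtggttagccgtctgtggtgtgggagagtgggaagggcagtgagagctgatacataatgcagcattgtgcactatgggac
Rag2: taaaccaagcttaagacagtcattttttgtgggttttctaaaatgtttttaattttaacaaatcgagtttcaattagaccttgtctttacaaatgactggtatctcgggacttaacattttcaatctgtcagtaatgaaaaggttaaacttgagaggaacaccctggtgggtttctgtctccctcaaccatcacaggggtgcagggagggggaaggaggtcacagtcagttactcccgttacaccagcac
Ptcra: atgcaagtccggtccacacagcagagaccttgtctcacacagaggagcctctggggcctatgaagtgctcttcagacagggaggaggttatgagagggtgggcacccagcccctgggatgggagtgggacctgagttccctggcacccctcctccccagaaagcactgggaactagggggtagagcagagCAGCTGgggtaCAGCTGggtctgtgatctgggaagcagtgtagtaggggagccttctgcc

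The Rag1 window held 1 CAGCTG, 128 bases before the start, the Ptcra window held 2, at 60 and 49 bases before the start, and the Rag2 window held 0. Only this form of the E-box was searched, so other forms in the windows are neither marked nor counted. The motif was in this window for 13% of all 32851 RefSeq promoters. A promoter was matched by symbol for 68.4% of the genes tested. The motif was in 20.5% of 532 matched promoters of genes higher in WT DP beyond 2-fold, in 13.7% of 1152 of genes lower beyond 2-fold, and in 13.8% of the remaining 7538. These shares describe letters in a window and were not tested.

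The segments of the T cell receptor loci moved by class, with alpha and beta sums higher and gamma and delta sums lower in WT DP. The 51 alpha J segments summed to 180, 202, 140, 65.9 and 145 CPM in WT DP, against 8.51, 3.50, 4.49, 5.86 and 3.91 CPM in WT DN. WT DP replicate 4 was the lowest of its group and still far above every WT DN library, and the mean was 27.9-fold higher in WT DP (exact 2-sided permutation test, p = 0.00794, the smallest this design allows, adjusted p = 0.0102). Gamma segments and constants summed to 1.75, 1.10, 2.95, 1.86 and 2.31 CPM in WT DP, against 260, 248, 326, 369 and 316 CPM in WT DN, a 152-fold lower mean in WT DP with the same p.

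The remaining classes changed by smaller factors. Beta V segments averaged 613 ± 93.2 CPM in WT DP and 241 ± 20.3 CPM in WT DN (SD, n = 5 each). Alpha V segments averaged 23.7 ± 1.35 CPM in WT DP and 14.2 ± 2.42 CPM in WT DN. Both classes rose and delta V and J segments fell, at 15.2 ± 1.02 CPM in WT DP and 23.9 ± 3.32 CPM in WT DN, each with an exact permutation p of 0.00794 and no overlap. Beta J segments averaged 237 ± 56.6 CPM in WT DP and 124 ± 40.3 CPM in WT DN, their groups overlapped, and the call (exact permutation test, adjusted p = 0.0268) was lost without WT DP replicate 3 (adjusted p = 0.0536). Only 18 of 30 listed alpha V genes had a count, and near-identical V genes share reads, so single V segments are not given.

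**Figure D3:**
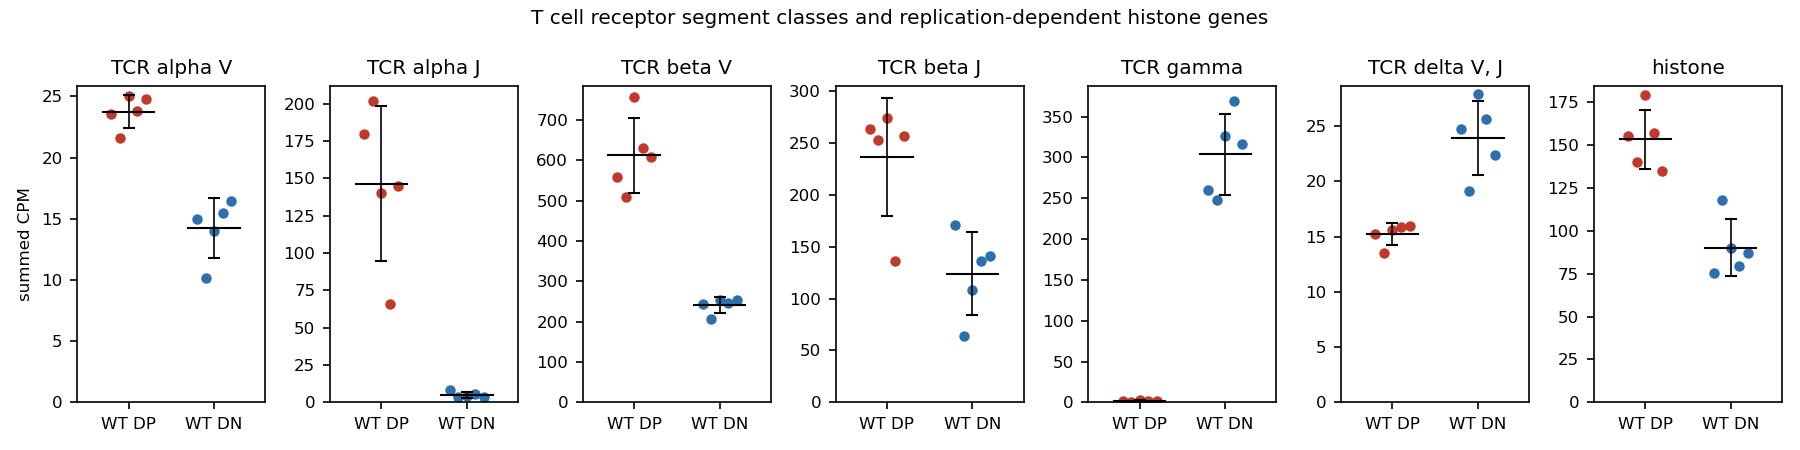
Summed CPM of T cell receptor segment classes and of replication-dependent histone genes in each library, WT DP (red) left of WT DN (blue), on linear axes from 0. Points are libraries, bars the mean and whiskers the SD (n = 5). Alpha J sums are high in WT DP and gamma sums are near 0 there.

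Of the constant genes, those of gamma are part of the gamma sum above, and 3 are given singly. Trac, the alpha constant gene, averaged 399 ± 37.9 CPM in WT DP and 67.7 ± 9.38 CPM in WT DN (SD, n = 5 each), and Trdc, the delta constant gene in the same locus, averaged 88.5 ± 9.79 CPM in WT DP and 197 ± 11.2 CPM in WT DN. Tcrg-C4, a gamma constant gene, was at 1.05 ± 0.236 CPM in WT DP and 173 ± 16.2 CPM in WT DN, a log2 fold change of -7.36 ± 0.15 (SE, adjusted p = 2.06e-12). Tcrg-C4, Trac and Trdc were named after their values were seen, to accompany the segment sums.

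The genes of the DN stage fell as a list. All 23 of 30 listed genes that passed the filter fell, 20 of them beyond 2-fold, with a median of -4.60. Members near 0 in WT DP, such as Hes1, Cpa3 and Hhex, passed only through WT DN, so the filter set the direction of their change. Without WT DN replicate 2, where the filter was applied again and the genes tested can differ, 21 fell and the median was -3.58. Il2ra, the interleukin 2 receptor alpha chain CD25 that marks the DN2 and DN3 steps, had 14.1, 8.70, 10.7, 16.1 and 14.3 CPM in WT DP, against 564, 315, 533, 612 and 605 CPM in WT DN. Kit, the stem cell factor receptor of the earliest precursors, had 4.38, 3.29, 2.68, 3.87 and 3.42 CPM in WT DP, against 70.5, 32.1, 64.2, 53.8 and 57.7 CPM in WT DN. For both receptors the groups were apart and WT DN replicate 2 was the lowest DN library, with log2 fold changes of -5.37 ± 0.23 and -3.98 ± 0.22 (SE, adjusted p = 8.57e-10 and 7.30e-09).

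Notch1, Notch3 and the Notch target Hes1 fell by different amounts. Notch1 had 395, 413, 249, 233 and 334 CPM in WT DP, against 1233, 435, 980, 1251 and 1208 CPM in WT DN. The groups did not overlap, although WT DN replicate 2 came within reach of WT DP (log2 fold change -1.65 ± 0.26, SE, adjusted p = 9.88e-05). Notch3, the second thymocyte Notch receptor, averaged 108 ± 22.7 CPM in WT DP and 353 ± 108 CPM in WT DN, a log2 fold change of -1.71. Hes1, a direct Notch target and transcriptional repressor, had 1.24, 0.274, 0.343, 0.0745 and 0.717 CPM in WT DP, against 70, 75.1, 51.2, 59.6 and 64.5 CPM in WT DN. That is a log2 fold change of -6.91 ± 0.35 (SE, adjusted p = 3.39e-09), with WT DN replicate 2 the highest library here. The list also held genes of other lineages: Cpa3, a mast cell protease, fell by 7.18 on the log2 scale, or by 8.05 without WT DP replicate 5, and Hhex, a progenitor and B cell factor, averaged 0.132 CPM in WT DP and 17.2 CPM in WT DN, with 55.6 CPM in WT DN replicate 2 alone. The log2 fold change of Hhex was -6.95, and -5.78 without that library. Granulocyte and mast cell markers, a list that holds Cpa3 itself, and B cell markers fell in the same libraries.

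**Figure D4:**
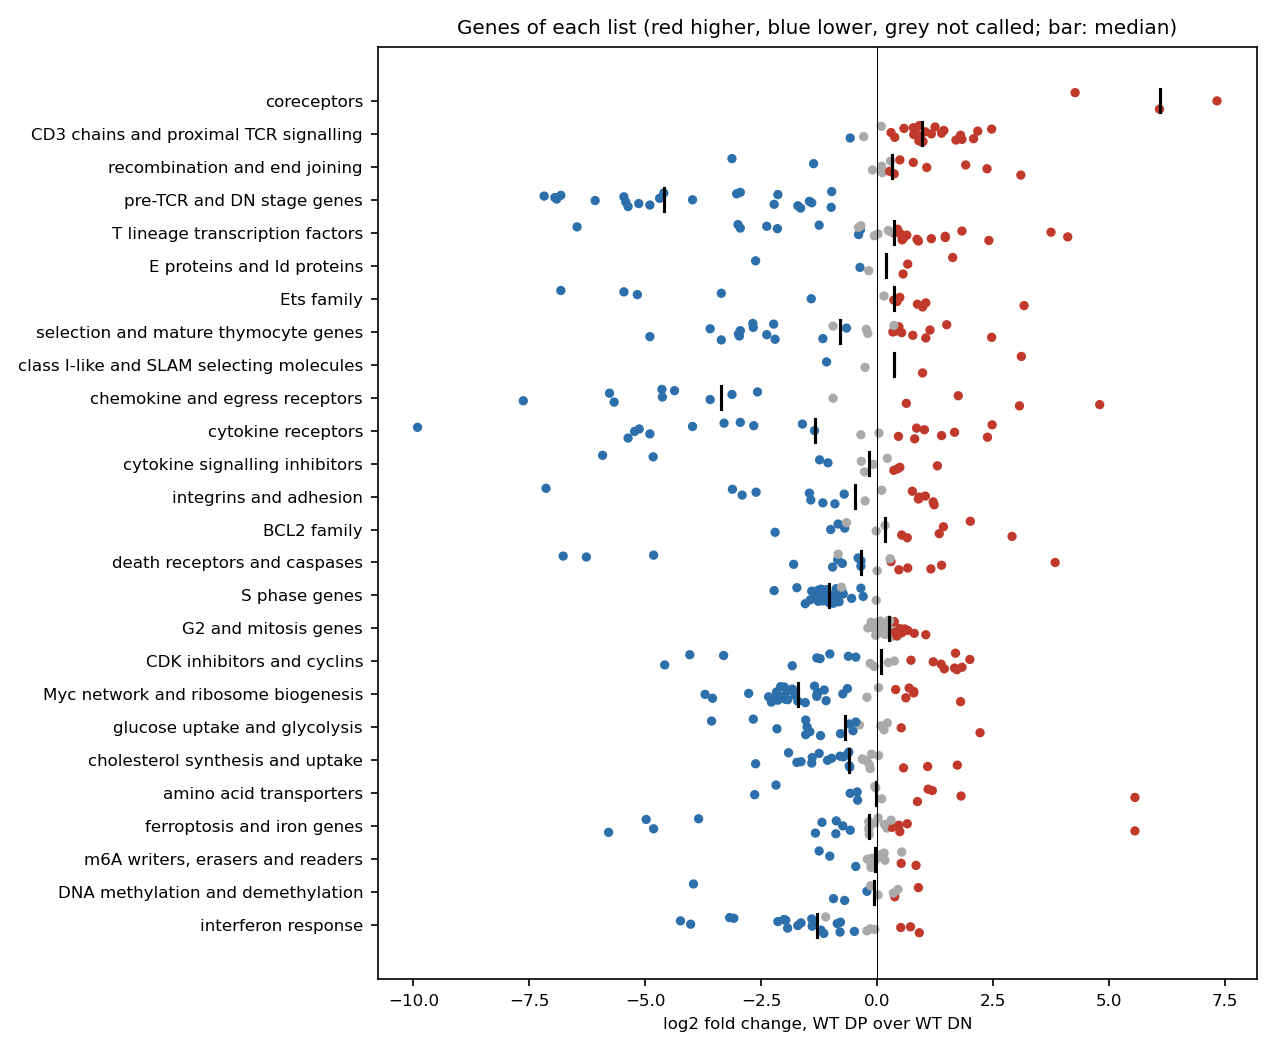
Log2 fold change of WT DP over WT DN for the tested members of each gene list. Red points rose, blue points fell, grey points were not called, and the black bar is the list's median. The DN stage genes tested, some of which passed the filter only through WT DN, lie left of 0 without exception. The 3 coreceptor genes lie far right of 0.

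Cytokine receptors were split between 8 that rose and 11 that fell among 21 tested, with a median of -1.35. Il7r, the interleukin 7 receptor alpha chain on which DN cells depend, had 3.58, 3.22, 7, 6.56 and 6.61 CPM in WT DP, against 161, 128, 186, 160 and 170 CPM in WT DN. No WT DP library came near the DN range (log2 fold change -4.90 ± 0.22, SE, adjusted p = 1.09e-09). Il2rb, shared by the interleukin 2 and 15 receptors, averaged 3.95 ± 1.36 CPM in WT DP and 148 ± 27.4 CPM in WT DN (SD, n = 5 each). Il1r1, the type 1 interleukin 1 receptor, had no count in any WT DP library and 4.65 to 10.5 CPM in WT DN, which is at least 179-fold lower in WT DP against a floor of 3 counts over the group, for counting error only. In the other direction Il4ra, the interleukin 4 receptor alpha chain, had 267, 288, 214, 241 and 273 CPM in WT DP, against 28.5, 140, 26.6, 27.8 and 24.1 CPM in WT DN. The groups were apart, with WT DN replicate 2 standing above its group, and the log2 fold change was 2.38, or 3.26 without that library. Il6st, the gp130 signalling chain, and Il17re rose by 1.67 and 2.48 on the log2 scale. NK and innate lymphoid markers, on which Il2rb is also expressed, fell alongside.

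Among 12 inhibitors of cytokine signalling, 4 rose and 4 fell, 33.3% each way, which is near the shares of all genes. Socs1, a suppressor of JAK signalling, averaged 115 ± 16 CPM in WT DP and 46.9 ± 4.69 CPM in WT DN (SD, n = 5 each, log2 fold change 1.30). Cish, which is induced by STAT5, had 0.567 ± 0.0715 CPM in WT DP and 16.3 ± 4.15 CPM in WT DN, a log2 fold change of -4.83 ± 0.24 (SE, adjusted p = 2.72e-09). Being near 0 in WT DP, Cish passed the filter only through WT DN.

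Transcription factors of the T lineage moved in both directions: of 29 tested, 15 rose, 8 fell and 6 were not called, with a median of 0.36. Bcl6, a repressor, averaged 264 ± 29.2 CPM in WT DP and 19.6 ± 7.88 CPM in WT DN (log2 fold change 3.75), and Satb1, a chromatin organiser, averaged 4156 ± 363 CPM in WT DP and 782 ± 109 CPM in WT DN (log2 fold change 2.41). Sox13, a gamma delta lineage factor, was at 0.825 ± 0.269 CPM in WT DP and 74.1 ± 16 CPM in WT DN. Ikzf4, which encodes Eos, and Klf2, which controls exit from the thymus, also fell. Ikzf4 averaged 1.24 ± 0.306 CPM in WT DP and 10 ± 3.9 CPM in WT DN, and Klf2 was at 130 CPM in WT DN replicate 2 against 27.4 to 38.3 CPM in the other DN libraries. The log2 fold change of Klf2 was -2.95, and -2.23 without that replicate.

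In the Ets family 7 of 13 genes rose and 5 fell. Ets2 had 1027, 1085, 792, 935 and 1007 CPM in WT DP, against 116, 78.1, 101, 117 and 128 CPM in WT DN. Its groups were apart by a wide margin (log2 fold change 3.17 ± 0.15, SE, adjusted p = 1.58e-09). Ets1 and Elk4 rose by about 2-fold, at log2 fold changes of 0.98 and 1.05. The falls included Erg, a progenitor factor, at 0.171 ± 0.110 CPM in WT DP and 20.5 ± 5.87 CPM in WT DN, and the myeloid and B cell factors Spi1 and Spib, which fell by 5.46 and 5.17, were highest in WT DN replicate 2, and fell by 4.40 and 3.91 without it. B cell markers, a list that holds Spib itself, and granulocyte markers also fell. Among E proteins and their Id inhibitors, 3 rose and 2 fell of 6 tested. Id2, which is high in innate lymphocytes, averaged 10.5 ± 1.65 CPM in WT DP and 64.7 ± 5.14 CPM in WT DN (log2 fold change -2.62), whereas Id3 and Tcf12, which encodes the E protein HEB, rose by 0.66 and 0.56. Tcf4, which encodes the E protein E2-2, fell by 0.37, a call lost without WT DP replicate 1, 4 or 5 (edgeR adjusted p = 0.0701, 0.0586 and 0.0651) and in the fit of all 35 libraries (adjusted p = 0.149).

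Genes for the CD3 chains and proximal receptor signalling rose in 22 of 25 cases, 9 of them beyond 2-fold, and 1 fell, with a median of 0.97. Cd5, an inhibitory coreceptor whose level tracks receptor signal strength, had 271, 261, 264, 270 and 238 CPM in WT DP, against 62.9, 39.3, 52.2, 45.0 and 36.3 CPM in WT DN. The groups were apart (log2 fold change 2.47 ± 0.14, SE, adjusted p = 8.60e-09). Its relative Cd6 averaged 442 ± 36.2 CPM in WT DP and 98.0 ± 15.2 CPM in WT DN, and Sla, which encodes the adaptor SLAP that promotes receptor turnover, averaged 836 ± 65.9 CPM in WT DP and 197 ± 9.73 CPM in WT DN. The single fall was Cd3g, the CD3 gamma chain, at 411 ± 64.8 CPM in WT DP and 616 ± 73.0 CPM in WT DN (SD, n = 5 each, log2 fold change -0.58, adjusted p = 0.00105).

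Genes of selection and maturation did not move as one. Of 26 tested, 9 rose and 13 fell, with a median of -0.81, or -0.37 without WT DN replicate 2. The risers included Cd69 and Egr2, both induced by receptor signalling. Cd69 had a log2 fold change of 1.14, and Egr2 averaged 19.3 ± 3.38 CPM in WT DP and 6.83 ± 3.54 CPM in WT DN. H2-K1, a classical MHC class I heavy chain, had 84.3, 67.9, 79.0, 92.2 and 81.1 CPM in WT DP, against 743, 1540, 624, 615 and 628 CPM in WT DN. The groups were far apart with WT DN replicate 2 the highest (log2 fold change -3.36 ± 0.25, SE, adjusted p = 1.28e-07). S1pr1, the receptor for exit from the thymus, averaged 2.31 CPM in WT DP and 28.0 CPM in WT DN, where replicate 2 held 77.8 CPM, and its log2 fold change was -3.60, or -2.76 without that replicate. Of 4 class I-like and SLAM genes tested, Slamf1 rose by 3.11 and Slamf6 by 0.98, Cd48 fell by 1.09 and Ly9 was not called. Cd1d1 is not analysed here.

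Chemokine and egress receptors showed 4 rises and 9 falls among 14 tested, with a median of -3.37. Ccr9, the receptor for the thymic chemokine CCL25, had 1041, 1057, 1150, 1057 and 1209 CPM in WT DP, against 122, 99.4, 134, 162 and 138 CPM in WT DN. Plxnd1, a semaphorin receptor that guides thymocytes to the medulla, had 1114, 1319, 911, 822 and 1127 CPM in WT DP, against 49.7, 27.6, 41.5, 33.3 and 37.9 CPM in WT DN. Both genes had separate groups, with log2 fold changes of 3.07 ± 0.13 and 4.80 ± 0.19 (SE, adjusted p = 8.57e-10 and 5.88e-10). Ccr4 rose by 1.75. The falls included receptors of innate-like, effector and B cells: Ccr6 by 7.63, Cxcr3 by 5.77 and Cxcr5 by 5.67. Ccr6 was at 40 CPM and Cxcr5 at 113 CPM in WT DN replicate 2, against 1.99 to 10.1 CPM and 4.09 to 12.7 CPM in the other DN libraries. Without that library Ccr6 fell by 6.58 and Cxcr5 by 3.70, and without WT DP replicate 2, the highest WT DP library for Ccr6 at 0.206 CPM, Ccr6 fell by 8.93. Markers of B cells and of innate-like T cells fell with them.

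Of 18 integrin and adhesion genes tested, 7 rose and 9 fell. Itgal and Itgb2, the 2 chains of LFA-1, rose together, with 973 ± 120 CPM in WT DP and 414 ± 52.5 CPM in WT DN for Itgal and 340 ± 14.2 CPM in WT DP and 147 ± 14.4 CPM in WT DN for Itgb2 (SD, n = 5 each). Itga1, Alcam and Itgae, which encodes CD103, fell by 7.14, 3.12 and 2.91 on the log2 scale, and Itga1 by 8.01 without WT DP replicate 5.

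The BCL2 family showed an exchange of survival genes. Bcl2l1, which encodes BCL-XL, had 278, 279, 245, 313 and 273 CPM in WT DP, against 38.2, 33.0, 42.9, 36.9 and 33.0 CPM in WT DN. Bcl2 had 23.9, 23.8, 23.8, 28.8 and 22.0 CPM in WT DP, against 111, 93.3, 111, 129 and 121 CPM in WT DN. Neither pair of groups overlapped, and the 2 genes moved in opposite directions, with log2 fold changes of 2.91 ± 0.10 and -2.20 ± 0.11 (SE, adjusted p = 2.71e-10 and 3.08e-09). Of 13 family members tested, 6 rose and 4 fell. The pro-death genes Bbc3, which encodes PUMA, and Bmf rose by 1.43 and 1.34, and the effector Bax fell by 1.00.

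Among 19 death receptor and caspase genes, 6 rose and 10 fell. Fas had 100, 96.1, 117, 108 and 98.4 CPM in WT DP, against 6.35, 11.8, 8.46, 4.60 and 4.82 CPM in WT DN. All WT DP libraries were above all WT DN libraries (log2 fold change 3.84 ± 0.23, SE, adjusted p = 1.40e-08). Its ligand Fasl, made by cytotoxic cells, was at 0.214 ± 0.157 CPM in WT DP and 6.35 ± 1.09 CPM in WT DN, and the inflammatory caspase gene Casp1 fell by 6.27, or by 6.98 without WT DP replicate 2. NK markers fell with Fasl. Tnfrsf1a and Cflar, an inhibitor of caspase 8, rose by 1.39 and 1.16.

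Genes of S phase and of G2 and mitosis were listed separately, and the difference between the lists was not tested. Of 35 S phase genes, 33 fell and 0 rose, 8 of them beyond 2-fold, with a median of -1.03. Mcm6, a subunit of the replicative helicase, had 288, 267, 273, 424 and 324 CPM in WT DP, against 940, 807, 996, 910 and 976 CPM in WT DN, with no overlap and WT DP replicate 4 the highest of its group. Ung and Gins2 fell by 2.22 and 1.73. Of 35 G2 and mitosis genes, 12 rose and 0 fell, with a median of 0.25, and none passed the test against 2-fold. The share that rose, 34.3%, is near the 30.2% of all genes. Cenpf, a kinetochore protein, averaged 262 ± 22.2 CPM in WT DP and 127 ± 33.0 CPM in WT DN (SD, n = 5 each, log2 fold change 1.05), and Cenpe and Cdc25b rose by 0.80 and 0.66. The 40 listed replication-dependent histone genes, 35 of them with a count, summed to 155, 140, 179, 157 and 135 CPM in WT DP, against 75.6, 118, 90.1, 79.7 and 87.0 CPM in WT DN. The groups did not overlap and the mean was 1.70-fold higher in WT DP (exact permutation test, p = 0.00794, adjusted p = 0.0102), whereas the S phase list fell.

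Cyclins and CDK inhibitors showed 9 rises and 9 falls among 22 tested. The D cyclins exchanged: Ccnd3 had 1337, 1240, 1087, 1381 and 1219 CPM in WT DP, against 430, 362, 406, 352 and 355 CPM in WT DN, and Ccnd2 had 11.2, 7.47, 10.0, 9.68 and 14.1 CPM in WT DP, against 243, 145, 277, 295 and 297 CPM in WT DN. Both had separate groups, with log2 fold changes of 1.72 ± 0.10 and -4.58 ± 0.22 (SE, adjusted p = 1.70e-08 and 2.38e-09). Cdk6, the partner of D cyclins, averaged 6.59 ± 1.51 CPM in WT DP and 65.3 ± 24.0 CPM in WT DN. The inhibitors also divided. Cdkn2d, which encodes p19, averaged 164 ± 23.3 CPM in WT DP and 40.8 ± 9.58 CPM in WT DN, Cdkn1b, which encodes p27, rose by 1.83, and Cdkn1a, which encodes p21, fell by 4.04 on the log2 scale.

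Growth genes fell. Of 35 genes of the Myc network and ribosome biogenesis, 27 fell, 22 of them beyond 2-fold, and 6 rose, with a median of -1.71. Myc, the growth-promoting factor itself, had 24.7, 21.8, 18.9, 32.3 and 30.1 CPM in WT DP, against 317, 244, 283, 296 and 355 CPM in WT DN. Srm, the spermidine synthase, had 13.1, 16.5, 10.8, 22.6 and 16 CPM in WT DP, against 193, 221, 200, 202 and 219 CPM in WT DN. Every WT DN library was several-fold above every WT DP library for both genes, with log2 fold changes of -3.55 ± 0.16 and -3.71 ± 0.17 (SE, adjusted p = 1.22e-09 and 1.26e-09). Polr1b, a subunit of RNA polymerase I, fell by 2.77. Of the 6 that rose, 4 belong to the MXD family, which competes with Myc for the partner MAX, and the largest was Mxd4 at 566 ± 83.6 CPM in WT DP and 162 ± 15.4 CPM in WT DN, with Mxd1 and Mxi1 each at a log2 fold change of 0.79 and Mxd3, named to complete the 4, at 0.69 (adjusted p = 0.0794 for Mxd3 in the fit of all 35 libraries).

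Of 18 glucose uptake and glycolysis genes, 12 fell and 2 rose, with a median of -0.69. Hk2, the inducible hexokinase, averaged 2.93 ± 1.36 CPM in WT DP and 34.8 ± 8.86 CPM in WT DN (SD, n = 5 each, log2 fold change -3.57). Tpi1 fell by 2.16. Ldhb, the lactate dehydrogenase chain that favours pyruvate, went the other way, with 410, 425, 420, 496 and 443 CPM in WT DP against 90.6, 105, 101, 87.3 and 86.4 CPM in WT DN. Its groups were apart (log2 fold change 2.22 ± 0.09, SE, adjusted p = 8.57e-10). In cholesterol synthesis and uptake 15 of 25 genes fell and 3 rose. The exporters Abca1 and Abcg1 rose by 1.73 and 1.09 on the log2 scale.

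The ferroptosis and iron list bears on the subject of the study, the lipid peroxidation death that cystine import and glutathione hold back. Of 24 genes tested, 5 rose, 10 fell and 9 were not called, with a median of -0.18. Slc7a11, the cystine transporter that supplies glutathione synthesis, had 193 to 340 CPM in WT DP, with a mean of 255 ± 61.2, against 4.08 to 6.68 CPM in WT DN, with a mean of 5.40 ± 1.05 (SD, n = 5 each). The gap between groups was far wider than the spread in either, and the log2 fold change of 5.56 ± 0.20 (SE, adjusted p = 2.73e-10) was among the 12 largest rises by the rule for named genes. Its gene lies on chromosome 3 from 50308481 to 50887298 on the minus strand in the deposited table, a long interval whose overlap with other transcripts was not examined. Slc3a2, the heavy chain that pairs with Slc7a11 and with other transporters, fell by 0.58, at 87.1 CPM in WT DP and 131 CPM in WT DN.

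Other members of the list showed no such rise. Gpx4, the peroxidase that removes lipid peroxides, averaged 77.7 ± 11.2 CPM in WT DP and 87.6 ± 17.9 CPM in WT DN and was not called (log2 fold change -0.17, adjusted p = 0.289). Tfrc, the transferrin receptor, averaged 131 ± 15.9 CPM in WT DP and 330 ± 76.4 CPM in WT DN (log2 fold change -1.33). Gpx4 and Tfrc were named after their values were seen. Lpcat3 and Ireb2 rose by 0.65 and 0.49. Scd1, Steap3 and Cybb fell by 5.79, 4.98 and 4.82, and Scd1, a lipid desaturase, was at 279 CPM in WT DN replicate 2 against 14.1 to 40.6 CPM in the other DN libraries, where B cell markers were also lower. Without that replicate Scd1 and Cybb fell by 4.20 and 4.01. Of 13 amino acid transporters, 5 rose and 5 fell, among them Slc38a9, an arginine sensor of the lysosome, up by 1.81 and Slc7a5, the large neutral amino acid carrier, down by 2.64.

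Of 17 genes that write, erase or read m6A, 2 rose, 3 fell and 12 were not called, against 63.9% called among all genes tested. None passed the test against a 2-fold change, and the median was -0.05. Without WT DN replicate 2 the number that fell was 6. The readers Ythdc1 and Ythdf3 rose by 0.84 and 0.52, and Igf2bp2 and Mettl16, a separate m6A methyltransferase, fell by 1.25 and 1.02. Of 10 genes of DNA methylation and demethylation, 4 fell and 2 rose, the largest change being Dnmt3b, a de novo methyltransferase, at 1.57 ± 0.520 CPM in WT DP and 24.7 ± 6.61 CPM in WT DN (SD, n = 5 each). Interferon response genes fell in 19 of 26 cases and rose in 3, with a median of -1.30. Ifitm3, Oasl2 and Mx1 fell by 4.24, 4.02 and 3.09, Oasl2 by 4.60 without WT DP replicate 1, and Stat2 rose by 0.91. Dendritic cell markers fell in 11 of 14 cases, Ccr9 rose and 2 were not called. The dendritic list summed to 10279 CPM in WT DN replicate 2, against 797 to 1244 CPM in the other WT DN libraries. The interferon list summed to 1066 CPM in that replicate, against 869 to 1021 CPM in the others. The part of dendritic cells in the interferon gene falls was not tested.

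The 12 largest rises by the rule for named genes were, after Cd4, the amino acid transporter gene Slc6a19, then Cd8a, Adam12, Xrra1, Fn3k, Slc7a11, Adcy1, Hrh3, Gpr162, Nav2 and Tle2. Slc6a19 had 155, 139, 120, 89.4 and 109 CPM in WT DP, against 2.96, 2.07, 0.264, 1.25 and 0.963 CPM in WT DN. Its antisense partner Slc6a19os, named for that reason, had 233 counts over the WT DP libraries and 3 over the WT DN libraries, and without strand the 2 cannot be told apart. Gpr162, which follows Cd4 on the same strand of chromosome 6 in the table, had 246, 259, 244, 210 and 237 CPM in WT DP, against 10.2, 7.93, 6.77, 7.17 and 5.66 CPM in WT DN. The rule chose genes whose groups do not overlap, and the log2 fold changes of Slc6a19 and Gpr162 were 6.36 ± 0.38 and 4.99 ± 0.15 (SE, adjusted p = 1.40e-08 and 7.95e-11). Hrh3, Fn3k and Adcy1, at means of 0.154, 0.354 and 0.528 CPM in WT DN, passed the filter only through WT DP. The filter therefore set the direction of their change. Adam12, a metalloprotease, averaged 82.4 ± 17.0 CPM in WT DP and 1.27 ± 0.737 CPM in WT DN, Nav2 181 ± 53.7 CPM in WT DP and 6.09 ± 2.20 CPM in WT DN, and Tle2, a Groucho corepressor, 56 ± 12 CPM in WT DP and 1.91 ± 1.34 CPM in WT DN. WT DP replicate 4 was the lowest WT DP library for 9 of the 12 rises, replicate 5 for 2 and replicate 1 for 1.

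The 12 largest falls were mostly genes with almost no count in WT DP, so their fold changes are poorly fixed. Mmp8, a neutrophil collagenase, had no count in WT DP and 4.76 to 22.6 CPM in WT DN, at least 239-fold lower in WT DP against the floor of 3 counts over the group. For Cacna1i and Rab38, with 1 count each over the WT DP libraries, the ratio of WT DN to WT DP was 939 (95% counting interval 168 to 37118) and 460 (82.3 to 18219). Cacna1i had 4.81, 53.3, 1, 6.04 and 1.2 CPM in WT DN, and without WT DN replicate 2 its ratio was 224 (39.9 to 8905). For Retnlg, a neutrophil gene, and Prss30, with 2 counts each, it was 237 (65.3 to 1960) and 219 (60.4 to 1814). Gzmb, a cytotoxic granule protease, had 0.073, 0.206, 0.343, 0.0745 and 0.159 CPM in WT DP, against 32.0, 22.6, 32.4, 26.4 and 36.9 CPM in WT DN. Cd163l1, a scavenger receptor of gamma delta T cells, averaged 0.402 ± 0.231 CPM in WT DP and 86.8 ± 26.7 CPM in WT DN. Il1r1, Esm1, Klrk1, Ccr6 and Fndc1 complete the list.

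The same contrast in wild-type mice of the same age shares no library with this one. In young mice 9697 of 13772 genes passed the test (70.4%), with 4671 rises (33.9%) and 5026 falls (36.5%) in young DP. Beyond 2-fold 2764 changed (20.1%), 950 higher (6.9%) and 1814 lower (13.2%). Among 13221 genes tested in both, 7589 were called in both, which is 89.1% of the WT calls and 80.6% of the young calls, and 7581 of them had the same direction. Beyond 2-fold, 2098 genes were shared, 81.8% of the WT set and 81.5% of the young set, and none was opposite. Slc7a11 averaged 253 ± 60.3 CPM in WT DP and 5.35 ± 1.05 CPM in WT DN, and 238 ± 40.6 CPM in young DP and 10.6 ± 6.36 CPM in young DN, when all 20 libraries were scaled together. Mettl3 on that scale averaged 50.6 ± 3.79 CPM in WT DP and 47.8 ± 6.78 CPM in WT DN, and 53.0 ± 5.02 CPM in young DP and 45.1 ± 2.84 CPM in young DN (difference of the log2 stage effects -0.15 ± 0.13, SE, adjusted p = 0.598).

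**Figure D5:**
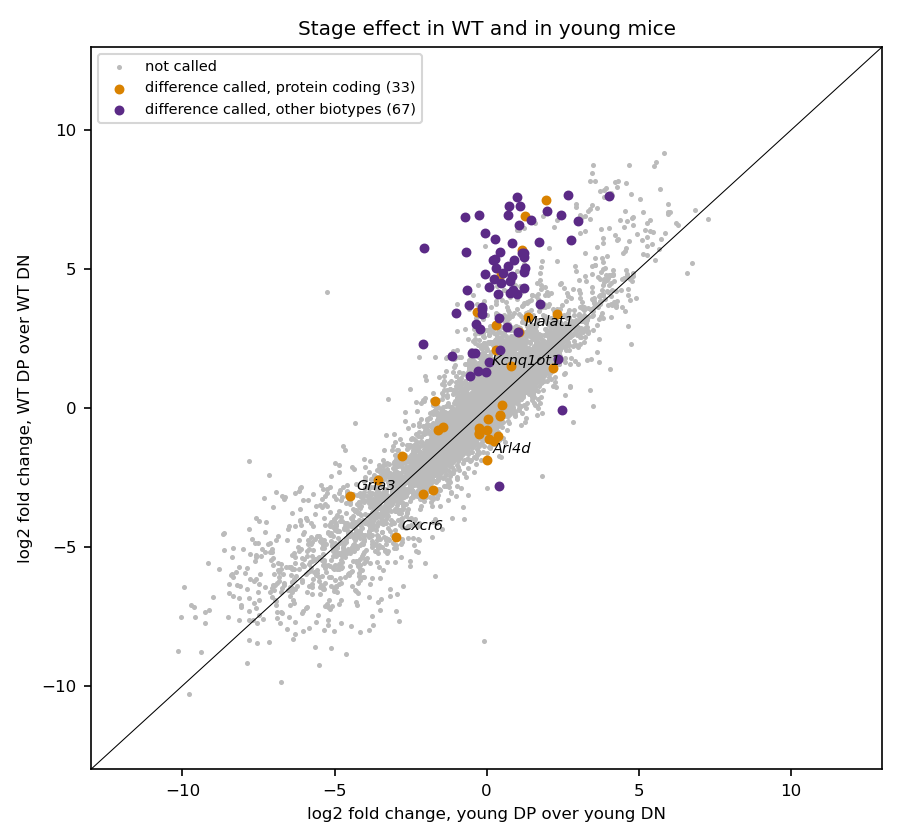
Log2 fold change of WT DP over WT DN (vertical axis) and of young DP over young DN (horizontal axis) for each of 14655 genes tested in the fit of 20 libraries. Grey points are genes whose 2 stage effects were not called different, coloured points are the 100 that were, and most of the coloured points lie above the diagonal.

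The difference between the stage effects was itself tested as an interaction. Of 14655 genes, 100 were called (0.682%), with the WT effect more positive for 81 (0.553%) and more negative for 19 (0.130%). Genotype and cohort cannot be told apart in this contrast. The count depended on single libraries, from 47 without WT DP replicate 1 to 402 without WT DP replicate 4, and on the filter, with 7 calls among genes of at least 5 mean CPM in a group. Of the 81, 17 were protein coding, 62 stayed under a mean of 5 CPM in every group, and 80 had a lower mean in WT DN than in young DN.

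Malat1, an abundant nuclear long noncoding RNA, was the named gene that remained called under all 27 alternatives. It had 2628, 2016, 2724, 962 and 1945 CPM in WT DP and 436, 276, 241, 325 and 272 CPM in WT DN, against 1558, 2384, 2192, 1962 and 2008 CPM in young DP and 939, 909, 1142, 938 and 992 CPM in young DN. The 2 DP groups overlapped, the 2 DN groups did not, and the log2 stage effect was larger in WT by 1.69 ± 0.28 (SE, adjusted p = 0.00675, and 1.01e-06 to 0.0354 over the alternatives). Kcnq1ot1, an imprinted antisense transcript, differed by 1.35 (adjusted p = 0.0374), Gria3 by 1.31 (0.0250) and Lingo4 by 1.09 (0.0278). In the other direction Arl4d differed by -1.86 (adjusted p = 0.0154), the chemokine receptor gene Cxcr6 by -1.64 (0.0175), Fam46c by -1.40 (0.0175) and Klk8 by -1.20 (0.0420). Each of these 7 lost its call under at least 1 alternative. Klk8 kept its call under only 9 of the 27, Kcnq1ot1 under 10 and Lingo4 under 18. Gria3 kept it under 23, Arl4d and Fam46c under 25 each, and Cxcr6 under 26.

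Long noncoding genes as a class, Malat1 among them, were examined next. In WT, 563 of 1281 tested rose (44.0%) and 121 fell (9.45%), with a median log2 fold change of 0.81, whereas protein coding genes had 3353 rises and 4249 falls among 11539, with a median of -0.08. In young mice 501 of 1376 long noncoding genes rose and 210 fell, with a median of 0.33. In the interaction test 61 of 1650 were called more positive in WT (3.70%) and 1 more negative, against 17 and 16 of 12111 protein coding genes. These genes took 1.67, 1.57, 1.47, 1.03 and 1.22% of all counts in WT DP and 1.16, 0.912, 0.825, 0.904 and 0.855% in WT DN, against 1.31 to 1.63% in young DP and 1.36 to 1.53% in young DN. WT DN libraries thus lay below both young groups, and WT DP replicate 4, without which the number of interaction calls was highest, was the lowest WT DP library. The split by gene class was made after the data were seen, antisense and overlapping genes cannot be resolved because the labels do not say whether counting used strand, and the part of RNA handling in this class was not tested.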

How the data were processed

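RNA of flow-sorted thymocytes was sequenced in bulk, and the authors deposited 1 table of gene counts, whole numbers with C57BL/6NJ gene identifiers. STAR 2.5.1, HTSeq 2.0.3, Subread and Trim Galore 0.4 are listed, with mm10 and GRCm39, in the submitters' processing notes without their roles, so the counting tool, build and strand setting behind these values are not given in the sources used here. From the deposited counts, genes were filtered with filterByExpr (minimum count 10, minimum total 15), scaled by TMM, and tested with edgeR 4.0.16 (R 4.3.3) by the quasi-likelihood test and glmTreat at 2-fold, with Benjamini-Hochberg adjustment and a threshold of 0.05. The fit used WT DP and WT DN alone. The difference between stage effects was the interaction in 20 libraries. Segment sums and library measures were tested over all assignments of the 10 libraries with an exact 2-sided permutation test. Each fit was tested on simulated data, where 76% of 100 genes changed 2-fold and 98% of 100 changed 4-fold were recovered for WT DP against WT DN among 13490 genes. For the interaction these shares were 73% and 91%, and for young DP against young DN 96% and 100%. The changed genes were not drawn from those with low counts and all others were simulated as unchanged. These shares are therefore not the power of the real comparisons.

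Alternatives were RLE, upper quartile and total scaling, no filter, a stricter filter, a replicate block, a fit of all 35 libraries, DESeq2 1.42.0 and leaving out each library. Named genes were anchors of the stage, the 12 largest called rises and falls with a gene symbol (no receptor segment, clone name or bare identifier) whose groups did not overlap and of which 1 group averaged 5 CPM or more, up to 3 called rises and 3 falls per list, and the interaction genes. Others are marked as named later. The members, lists and tests were chosen with earlier results of these data known. Counting intervals and floors cover counting error only. Results for 4 genes that the rule names are not reported here.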

Additional observations from a re-analysis of the deposited data

Results flagged for a closer look

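Among 322 groups of 5 values for the genes and sums given above, 56 held a library far from the other 4, and 36 of the 56 were WT DN replicate 2, where chance alone gives about 5% of groups. WT DN replicate 2 was the highest of its group, in CPM, for Ighm (1774), Poll (20.4), Hhex (55.6), Il4ra (140), Klf2 (130), Spi1 (44.3), Spib (195), Id3 (90.6), Cd69 (26.1), H2-K1 (1540), S1pr1 (77.8), Slamf1 (20.5), Ly9 (133), Ccr6 (40.0), Cxcr5 (113), Bax (126), Casp1 (33.3), Slc3a2 (160), Gpx4 (119), Scd1 (279), Cybb (107), Stat2 (78.6) and Cacna1i (53.3). It was the lowest for Rag1 (315), Dclre1c (19.1), Il2ra (315), Notch3 (167), Il2rb (100), Il6st (21.5), Ets1 (281), Tcf12 (284), Cenpe (76.9), Cdk6 (23.6), Tfrc (196), Slc7a5 (149) and the beta V segment sum (206). B cell markers summed to 8281 CPM in that library, and their part in these values was not tested.

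The other libraries that stood apart were fewer. In WT DP, replicate 4 was lowest for Adam12 (53.0 CPM), Kcnq1ot1 (17.8 CPM) and the beta J segment sum (136 CPM) and highest for Bcl2 (28.8 CPM) and Hk2 (5.29 CPM). WT DP replicate 5 was highest for Cpa3 (0.637 CPM), Egr2 (25.1 CPM) and S1pr1 (4.38 CPM) and lowest for Cybb (0.319 CPM). WT DP replicate 3 was highest for Alcam (2.13 CPM), Cdkn1b (442 CPM), Spi1 (0.618 CPM), Rab38 (0.0687 CPM) and Prss30 (0.137 CPM). WT DP replicate 2 was highest for Ikzf4 (1.78 CPM) and Cacna1i (0.0685 CPM). WT DP replicate 1 was lowest for Ythdc1 (310 CPM) and highest for Retnlg (0.146 CPM). In WT DN, replicate 1 was highest for Cd163l1 (134 CPM), and replicate 5 for Slc6a19os (0.181 CPM). The values of Cacna1i, Rab38, Retnlg and Prss30 in WT DP, and of Slc6a19os in WT DN, rest on 1 to 3 counts.

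The stage effect differed between WT and young mice by the interaction test for 10 of the genes given above. The WT log2 effect minus the young one was 1.69 for Malat1, 1.35 for Kcnq1ot1, 1.31 for Gria3, 1.09 for Lingo4, -1.86 for Arl4d, -1.64 for Cxcr6, -1.40 for Fam46c and -1.20 for Klk8. For Ly9 it was -0.68 (edgeR adjusted p = 0.0490) and for Bbc3 -0.75 (adjusted p = 0.0266). Apart from Ly9 and Bbc3, whose calls under the alternatives are not given here, only Malat1 kept its call under all 27 alternatives. In the scaling of all 20 libraries, Ly9 was at 131 CPM in WT DN replicate 2 and at 77.8 to 86.8 CPM in the other WT DN libraries.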

How the results depend on the processing

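The counts of genes called and changed beyond 2-fold for WT DP against WT DN stayed within 1.5 times under all alternatives, at 8234 to 9203 and 2525 to 2899 when 1 library was left out. The interaction count, 100, moved most: 7 with the stricter filter, 15 with the replicate block, 331 with DESeq2, and 47 to 402 when 1 library was left out. Of these 402, 199 were more positive and 203 more negative in WT. The ratio of the beta J sums kept its direction, from 1.70 to 2.11 without 1 library, and was 1.83 without WT DP replicate 3, where its call was lost. For WT DP against WT DN, of 2731 comparisons of 152 genes with their alternatives, 6 lost a call and 1, for Ighm, reversed. Lost calls of the interaction test are not in this count. Ighm was not called with all libraries and had log2 values of -0.39 to 0.40 when 1 library was left out. The highest was without WT DN replicate 2, where Ighm was called. For 3 of the genes DESeq2 gave no adjusted p. The causes were not tested.

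The labels do not say that replicate numbers pair the libraries, and they were not taken to do so: correlations of deviations ran from -0.157 to 0.265 for the same number and from -0.285 to 0.251 for other numbers, and 3 of 5 WT DP libraries correlated best with their own number. Xist was high in replicates 1 and 2 of both groups, a hint from the data that a number may be shared and not part of the design. With the number as a replicate block, 8214 genes were called and 2511 changed beyond 2-fold for WT DP against WT DN, and 9810 were called for young DP against young DN. At 0 counts in WT DP, depth limits a fold to a lower bound.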
